A study of Mus musculus with 23 samples.

Results

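The 5 microRNAs miR-375-3p, miR-203-3p, miR-205-5p, miR-192-5p and miR-194-5p were followed through development in 2 sorted cell types of the mouse lung. They were chosen by name, as microRNAs known from epithelia outside the miR-200 family and the miR-183 cluster, and are 5 of the 602 mature microRNAs on the panel. The deposited table lists microRNAs by identifier only. Each member was found by the identifier given for its name, MIMAT0000739 for miR-375-3p, MIMAT0000236 for miR-203-3p, MIMAT0000238 for miR-205-5p, MIMAT0000517 for miR-192-5p and MIMAT0000224 for miR-194-5p. MicroRNAs were counted on a NanoString nCounter panel, which reads probe barcodes without amplification. All 23 samples came from WT C57BL6 mice with no treatment named in the labels. Type II pneumocytes (AT2 cells, the surfactant-producing cells of the alveolus) were sorted on CD326 and gave 13 samples. Endothelial cells (EC) were sorted on CD31 and gave 10 samples. Both were taken at 6 stages, 2 before birth (E16.5 and E18.5, named by the embryonic day) and 4 after it (P1, P7, P14 and P28, by the postnatal day). There were 2 samples per stage and cell type, but 3 of AT2 cells at P28 and 1 of EC both at E18.5 and at P1. CD326 is EpCAM, a surface protein of epithelial cells in general, and CD31 is Pecam1, so the AT2 gate can hold other epithelial cells. Samples of both types carry 9 specimen IDs in common in their titles, and the labels do not say how many animals a sample pooled.

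A microRNA guides the Argonaute complex to messenger RNAs that pair with its seed, bases 2 to 8 counted from its 5′ end, and lowers their stability and translation. Each of these microRNAs is known from particular epithelia. miR-375 is abundant in pancreatic islets and other neuroendocrine cells. miR-203 rises as keratinocytes of the skin differentiate, where it represses p63, and miR-205 is typical of basal and stratified epithelia, where it represses Zeb1 and Zeb2 together with the miR-200 family. miR-192 and miR-194 come from shared primary transcripts and are abundant in liver, kidney and intestine.

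The mature sequences show how far the members are related. They are from RefSeq (GRCm38.p6), matched by name for 4 of the 5 members, and are printed 5′ to 3′ with the seed in capitals.
miR-203-3p: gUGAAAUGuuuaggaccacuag
miR-205-5p: uCCUUCAUuccaccggagucug
miR-194-5p: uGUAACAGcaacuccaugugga
miR-192-5p: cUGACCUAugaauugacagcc
miR-215-5p: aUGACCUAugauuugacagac
The 4 members shown have 4 different seeds. Among 1679 mature names in the table, only miR-215-5p carries the seed of one of them, that of miR-192-5p, and it is shown for that reason. Position by position, miR-192-5p and miR-215-5p differ at 3 of 21 bases, C1A, A12U and C20A, with the base of miR-192-5p first and positions counted from the 5′ end. The labels do not say whether the probe for miR-192-5p also reads miR-215-5p.

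The genes lie apart except for one relation. miR-203-3p is encoded on the plus strand at chr12:112130927-112130948, and miR-205-5p on the minus strand at chr1:193507503-193507524, inside the long noncoding gene Mir205hg. The same miR-194-5p is encoded by 2 genes, Mir194-1 at chr1:185313325-185313346 and Mir194-2 at chr19:6264658-6264679, both on the plus strand. Mir192, with its mature sequence at chr19:6264857-6264877, starts 115 bp after the Mir194-2 hairpin, and Mir215 starts 195 bp after the Mir194-1 hairpin, within the protein-coding gene Iars2. The panel cannot tell which of the 2 genes a miR-194-5p molecule came from. The Mir375 hairpin is on the minus strand at chr1:74900658-74900721, between Cryba2 and Cfap65.

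The values below are scaled counts, the recovered nCounter counts times 1 factor per sample, as deposited. Recovered microRNA counts ranged from 26640 to 571724 per sample and the factor from 0.296 to 7.93. A larger factor raises background as well. The scaled background, the mean of 8 low control rows, averaged 7.45 ± 6.20 in AT2 cells and 21.0 ± 12.1 in EC (SD, n = 13 and 10). A value was called above background if it exceeded the mean plus 2 SD of those rows, a limit between 6.16 and 95.1 on the scaled counts, and 302 microRNAs that did so in at least 2 samples were tested. miR-203-3p was above its limit in 13 of 13 AT2 and 10 of 10 EC samples, miR-375-3p in 13 and 4, miR-205-5p in 13 and 9, miR-194-5p in 8 and 4, and miR-192-5p in 2 and 0. All 5 therefore passed the filter, and miR-192-5p passed on 2 AT2 samples alone. In AT2 P28 replicate 1, the sample with 26640 counts, the 8 rows had no spread and the limit was 1 count. Few counts were therefore enough to be above background there. The identity of the sorted cells was not checked by named marker microRNAs, because 0 of 34 marker names could be matched to an identifier.

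In 3 EC samples, P1 replicate 1, P14 replicate 2 and P28 replicate 2, microRNAs that are high in AT2 cells stood higher by median than in the other EC samples. For each microRNA a position was computed, where 0% is the mean of the 7 other EC samples and 100% the mean of the 13 AT2 samples. Over 15 microRNAs that exceeded EC by at least 4-fold in AT2 cells in a fit without the 3 samples, the 5 members left out, the median position was 17.8% in P1 replicate 1, 37.9% in P14 replicate 2 and 16.5% in P28 replicate 2. The 7 others, whose mean sets the zero, had medians between -4.51% and 7.45%. Over 30 microRNAs at least 4-fold higher in EC, the median level in the 3 samples was 52.8%, 32.5% and 64.3% of the mean of the 7. In P28 replicate 2 the lower quartile of the 15 was -1.92%. Both lists come from the fit without the 3 samples, and the 7 others set the reference. That choice alone can move the 3 toward AT2 levels, so these shifts are a description and not a test. The reference also mixes stages, and EC P1 replicate 1 is the only EC sample of P1. The 3 samples were set apart with earlier results of these data known, and results are given with and without them. In bulk samples, fewer cells of a type and less RNA per cell cannot be told apart.

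Over the 6 stages, 4 of the 5 members passed the test for a difference between the cell types. miR-375-3p and miR-205-5p were higher in AT2 cells, and miR-203-3p did not pass. The fitted values of miR-192-5p and miR-194-5p were lower in AT2 cells, but both lay at or near background. The scaled mean background itself differed by -1.37 on the log2 scale, and miR-192-5p was above its limit in 0 of 10 EC samples. Of all 302 tested microRNAs 67.2% differed, 19.5% higher and 47.7% lower in AT2 cells (limma, adjusted p below 0.05), so a difference as such is common here. The median log2 difference, AT2 minus EC, was 0.24 over the 5 members (that of miR-203-3p) and -0.43 over all tested. The split of calls moved with the scaling, with 59 higher and 144 lower as deposited, 88 and 102 with the samples shifted to a common median, and 105 and 83 with DESeq2 on the recovered counts. Before birth 2 of the 5 members were called, beside 44.7% of all tested (16.6% higher and 28.1% lower in AT2 cells), and at P7 to P28 4 of 5, beside 63.2% (47 microRNAs higher and 144 lower).

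miR-375-3p was above background in every AT2 sample and was the member with the largest difference over all stages. AT2 cells had 301 and 286 scaled counts in the E16.5 samples, 209 and 131 in those of E18.5, 197 and 349.8 in those of P1, 236 and 525 in those of P7, 351 and 367 in those of P14, and 431, 755 and 563 in those of P28. EC had 18.3 and 24.98 in the E16.5 samples, 63.4 in those of E18.5, 97.3 in those of P1, 11.6 and 24.4 in those of P7, 18.5 and 379.8 in those of P14, and 84.9 and 337 in those of P28. All 13 AT2 samples lay above the 7 EC samples other than the 3 set apart, and 4 of the 13 lay above all 10. Within the 9 shared specimen IDs, miR-375-3p was higher in the AT2 sample in 8. Its ratio ranged from 0.925 to 5.08 in the 4 specimens whose EC sample was above its limit, and was at least 2.20 to at least 18.6 in the 5 others, with EC set to its limit.

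The log2 difference of miR-375-3p, AT2 minus EC, was 2.44 ± 0.40 (SE; limma, adjusted p = 4.06e-05). As a ratio of geometric means, with stages weighted equally, this is at least 3.86-fold, with the 6 EC samples below their background limit set to that limit. It was 2.54 ± 0.72 before birth (adjusted p = 0.0103), at least 3.42-fold since all 3 EC samples were below their limit. At P7 to P28 it was 2.70 ± 0.51 (limma, adjusted p = 0.000244), at least 4.71-fold. Single EC samples moved these values, to 3.72 before birth without EC E18.5 replicate 1, which leaves E16.5 alone, and at P7 to P28 to 1.99 without EC P14 replicate 1 and 3.42 without EC P14 replicate 2, all still called (limma). Without the 3 EC samples set apart, the difference was 3.27 over the 5 stages that both cell types then had and 3.75 at P7 to P28. Those 3 samples held the 3 highest EC values of miR-375-3p, between 97.3 and 379.8, while the 7 others reached at most 84.9. Leaving them out therefore widens the difference by construction, and the larger values are no separate support. Raising every value below the highest background limit to that limit left 1.21 before birth and ended that call (limma, adjusted p = 0.121).

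**Figure D1:**
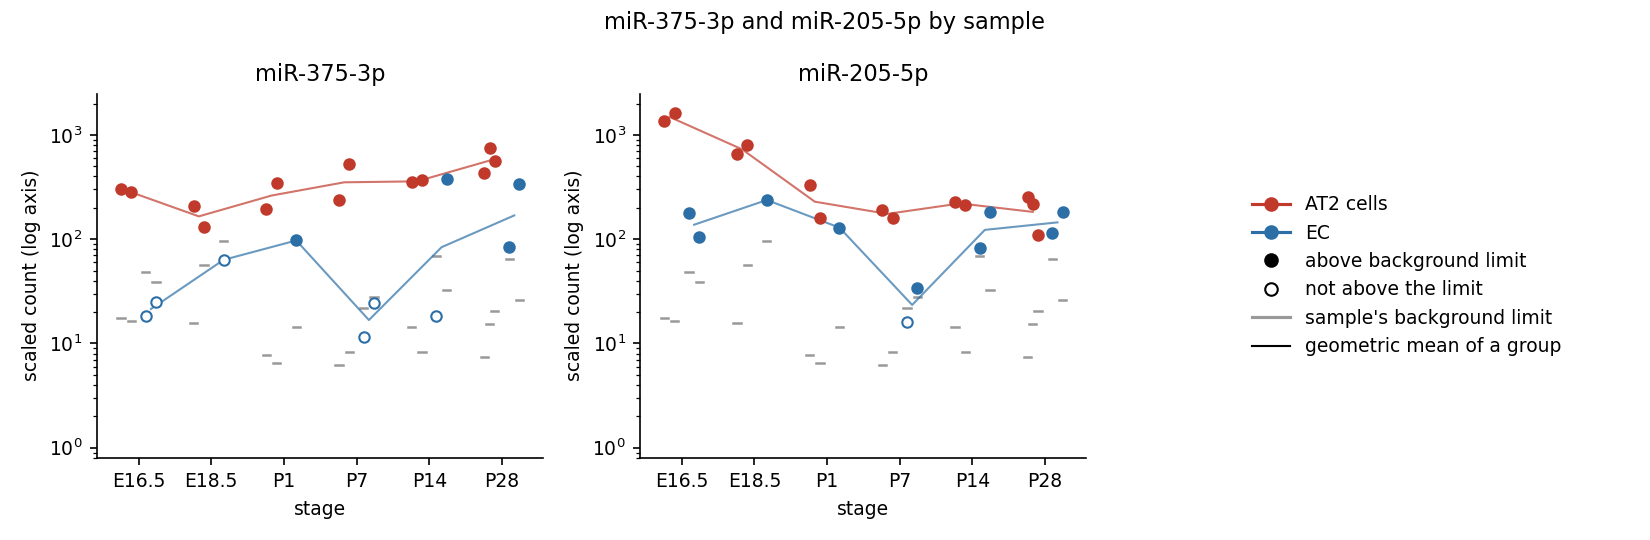
Scaled counts (log axis) of miR-375-3p and miR-205-5p by stage, 1 point per sample, AT2 cells and EC side by side at each stage, with lines through the geometric mean of each group and a grey bar at the background limit of each sample; open points are not above that limit. miR-375-3p in AT2 cells was lowest on average at E18.5 (170 ± 55.0, SD, n = 2) and highest at P28 (583 ± 163, SD, n = 3), while miR-205-5p in AT2 cells was highest at E16.5 (1497 ± 183, SD, n = 2).

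The EC levels of miR-375-3p were spread over a wide range that followed single samples. EC P14 replicate 1 had 18.5 and EC P14 replicate 2 had 379.8 scaled counts, the second above the AT2 sample of its own specimen ID, at 351. Behind these values stood 9 and 236 recovered counts. In position, miR-375-3p reached 19.0% in P1 replicate 1, 106% in P14 replicate 2 and 92.5% in P28 replicate 2. The 15 other AT2-high microRNAs ranged from -3.67% to 88.9%, from -5.38% to 94.9% and from -19.7% to 73.8% in the same samples. miR-375-3p thus stood above all 15 in P14 replicate 2 and in P28 replicate 2, and above 11 of 15 in P1 replicate 1. In the 7 other EC samples it lay between -7.22% and 15.2%. The part that AT2 cells or their RNA in these EC samples had in the level of miR-375-3p was not tested.

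**Figure D2:**
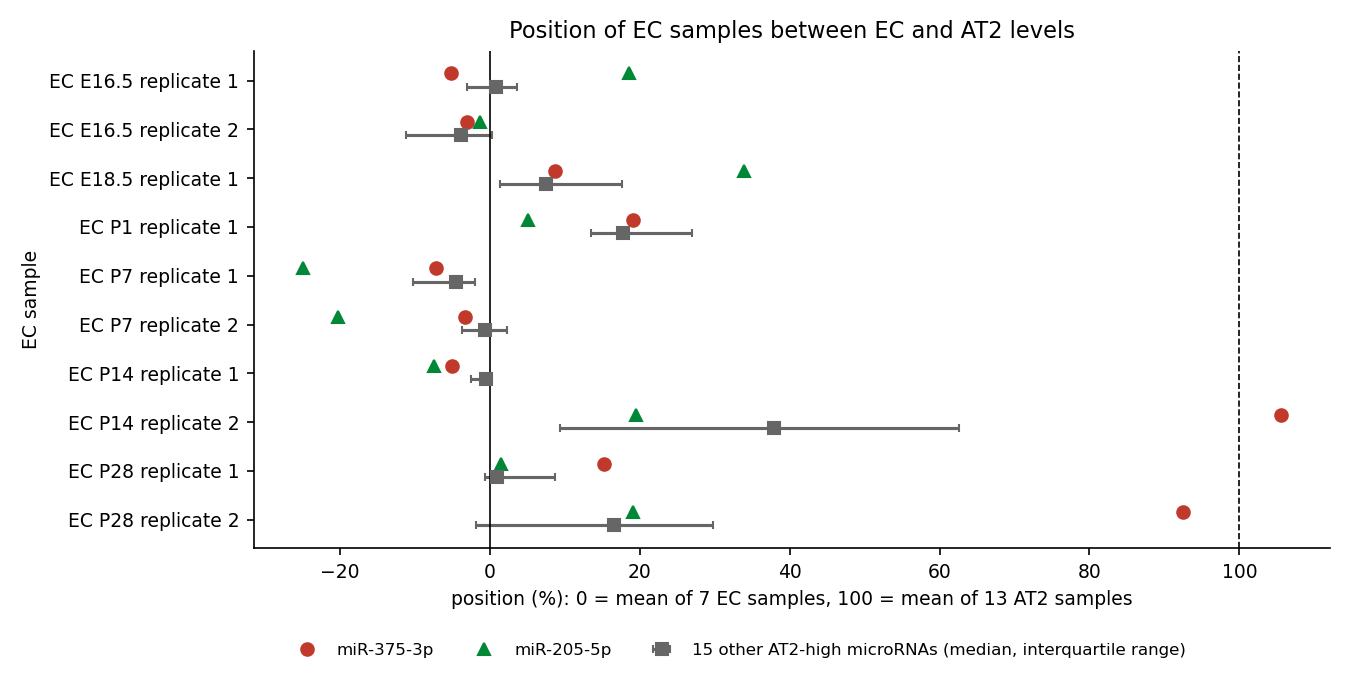
Position (%) of miR-375-3p, miR-205-5p and 15 other AT2-high microRNAs (squares, median with interquartile range) in each of the 10 EC samples, where 0 is the mean of 7 EC samples and 100 the mean of 13 AT2 samples. miR-375-3p stood at 106% in P14 replicate 2 and 92.5% in P28 replicate 2, where the medians of the 15 were 37.9% and 16.5%. The 100% mark averages all AT2 stages and is not matched to the stage of each EC sample.

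Along the stages, miR-375-3p did not pass the test in AT2 cells. Its 7 AT2 samples at P7 to P28 had a median of 431 scaled counts (range 236 to 755), and the 4 at E16.5 and E18.5 a median of 248 (131 to 301). Of the 7 later samples 6 lay above every earlier one. The log2 difference, P7 to P28 minus E16.5 and E18.5, was 0.91 ± 0.58 (SE; limma, adjusted p = 0.189), against a median of -0.64 over all 302 tested microRNAs, of which 51.3% differed, 11.3% higher and 40.1% lower at the later stages. The F-test over the AT2 stages gave an adjusted p of 0.490, and 0.0361 without the 3 EC samples (limma). The call depended on the spread and on the scaling. Without the 3 EC samples, which enter only through the pooled spread, the same 0.91 had an adjusted p of 0.0172 (limma). Shifting samples to a common median gave 1.79 (limma, adjusted p = 0.0329), and DESeq2 on the recovered counts gave 1.51 (adjusted p = 0.0183). Leaving out EC P14 replicate 1 or replicate 2 alone also brought it under 0.05 (limma, adjusted p = 0.0407 and 0.0410).

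In EC the same later minus earlier difference of miR-375-3p was 0.75 ± 0.67 (SE; limma, adjusted p = 0.389), with all 3 earlier samples below their limit. Of all tested microRNAs 37.1% differed in EC, 9.27% higher and 27.8% lower later. The value was set by single samples. Without the 3 EC samples it was -0.29, and without EC P14 replicate 1 it was 1.47 (limma, adjusted p = 0.0158). DESeq2 on the recovered counts gave 1.97 (adjusted p = 0.0274). The F-test over the stages in EC gave an adjusted p of 0.0589 as deposited, 0.0201 without the 3 EC samples and 0.0475 with the specimen ID as a block (limma). With 1 sample left out it lay between 0.000272 (without EC P14 replicate 1) and 0.165. The change along the stages was not shown to differ between the cell types, at 0.16 ± 0.88 for AT2 minus EC (SE; limma, adjusted p = 0.956), and the sign of this value turned with quantile normalization (-0.22), edgeR (-0.45) and DESeq2 (-0.46).

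Over the 23 samples the microRNAs most like miR-375-3p were MIMAT0000153 and MIMAT0000233, with Pearson r of 0.94 and 0.93 on log2 values. All 23 samples enter, so these correlations carry the cell type difference and the 3 EC samples with them. Both microRNAs belong to the 15 above. In the 3 EC samples MIMAT0000153 reached positions of 17.4%, 46.8% and 31.9%, and MIMAT0000233 17.8%, 81.7% and 33.6%, each below miR-375-3p.

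miR-205-5p was the member that changed most along the stages in AT2 cells. AT2 cells had 1368 and 1626 scaled counts in the E16.5 samples, 655 and 810.3 in those of E18.5, 328 and 160.2 in those of P1, 191 and 160.3 in those of P7, 228 and 214 in those of P14, and 253, 218 and 111 in those of P28. EC had 180.1 and 105 in the E16.5 samples, 238 in those of E18.5, 129 in those of P1, 16.2 and 33.9 in those of P7, 82.4 and 183 in those of P14, and 116 and 182 in those of P28. The 4 AT2 samples before birth lay above all others of the series. Before birth the AT2 means were 1497 ± 183 and 733 ± 110, and after birth 244 ± 119 in P1, 176 ± 21.9 in P7, 221 ± 9.77 in P14 and 194 ± 73.98 in P28 samples (SD, n = 2, and 3 for P28). E16.5 and E18.5 did not overlap with each other or with any later stage, while P1 overlapped with P7, P14 and P28.

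In AT2 cells miR-205-5p fell by 2.44 ± 0.32 on the log2 scale at P7 to P28 relative to E16.5 and E18.5 (SE; limma, adjusted p = 5.12e-06). The earlier level was 5.43 times the later one in geometric means. All 4 earlier samples lay above all 7 later ones. The moderated F-test over the stages in AT2 cells gave an adjusted p of 0.000124 (limma), and 49.0% of tested microRNAs passed it. A fall is the common direction here, with 40.1% of tested microRNAs lower later in AT2 cells and a median of -0.64, and the mean scaled background itself differed by -1.04. miR-205-5p remained called under every alternative of scaling, filter and sample choice that was run. The CD326 gate can hold other epithelial cells, so a change in the mix of sorted cells cannot be told apart from one within AT2 cells.

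In EC miR-205-5p also fell, by 1.26 ± 0.37 on the log2 scale (SE, limma, adjusted p = 0.0170), where 27.8% of tested microRNAs were lower later. The median over all tested microRNAs was -0.57 in EC, and the mean scaled background differed by -0.86. The 248 microRNAs above background in no sample had a median of -1.12, close to the fall of miR-205-5p. The 6 later EC samples had a median of 99.1 scaled counts (16.2 to 183) and the 3 earlier ones 180.1 (105 to 238). The groups overlapped, and only 1 of the 3 earlier samples lay above all later ones. Both P7 samples were lower than every other EC sample, and P7 replicate 1 was below its background limit. This call ended with samples at a common median (-0.65, adjusted p = 0.267), without EC E16.5 replicate 1 (-1.06, adjusted p = 0.0653) and without EC E18.5 replicate 1 (-0.86, adjusted p = 0.146), all with limma, and likewise with edgeR (-0.59, adjusted p = 0.341) and DESeq2 (-0.61, adjusted p = 0.308). It held when the 3 EC samples were left out, at -1.55 (limma, adjusted p = 0.00643). The F-test over the stages in EC, which 27.2% of tested microRNAs passed, gave an adjusted p of 0.00273, against 0.0825 without EC P7 replicate 1 and 0.814 with values under the highest background limit of the series raised to that limit (limma). The difference of the later minus earlier changes, AT2 minus EC, was -1.18 ± 0.49 on the log2 scale (SE), which did not pass after adjustment (limma, adjusted p = 0.202). Of tested microRNAs 6.29% passed that test, 2.98% with a positive and 3.31% with a negative difference.

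Between the cell types, miR-205-5p was higher in AT2 cells by 1.65 ± 0.22 on the log2 scale (SE; limma, adjusted p = 4.90e-06), at least 3.08-fold with the 1 EC sample below its limit set to that limit. Before birth the difference was 2.52 ± 0.40 (limma, adjusted p = 0.000154), 5.76-fold in geometric means, and at P7 to P28 it was 1.34 ± 0.28 (adjusted p = 0.000649), at least 2.44-fold. Without EC E18.5 replicate 1 the difference before birth rested on E16.5 alone and was 3.43, still called (limma). Of the 9 specimen IDs, 8 had more miR-205-5p in the AT2 sample, with a median ratio of 2.75 and a range of 0.610 to 15.4. The exception was P28, with 111 in AT2 replicate 3 and 182 in EC replicate 2. Without the 3 EC samples the overall difference was 1.99 (limma, adjusted p = 2.64e-06). In those 3 samples miR-205-5p stood at positions of 5.05%, 19.5% and 19.1%, and it stood at 33.9% in EC E18.5 replicate 1, which is not one of them. With every value under the common floor, the highest background limit, set to that floor, the difference at P7 to P28 was 0.65 and no longer called (limma, adjusted p = 0.0879).

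miR-375-3p and miR-205-5p were thus both higher in AT2 cells but followed different courses there. At E16.5 AT2 cells had 1368 and 1626 scaled counts of miR-205-5p and at P28 253, 218 and 111, whereas miR-375-3p had 301 and 286 at E16.5 and 431, 755 and 563 at P28. Their Pearson r on log2 values was 0.53 over 23 samples and -0.56 within the 13 AT2 samples, given as a description over samples that share stages and scaling factors.

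miR-203-3p was above background in every sample of both types, at overlapping levels, but in EC before birth the margin was small. EC E18.5 replicate 1 had 13 recovered counts, which are 103 scaled counts against a limit of 95.1. The EC E16.5 samples had 20 and 22 recovered counts, each 61.1 scaled counts, against limits of 48.9 and 39.2. AT2 cells had 155 and 119 scaled counts in the E16.5 samples, 63.7 and 136 in those of E18.5, 116 and 84.7 in those of P1, 64.2 and 45.2 in those of P7, 134 and 81.9 in those of P14, and 74.3, 125 and 98.98 in those of P28. EC had 61.1 and 61.1 in the E16.5 samples, 103 in those of E18.5, 57.1 in those of P1, 65.9 and 70.5 in those of P7, 111 and 91.7 in those of P14, and 108 and 95.6 in those of P28. Its 13 AT2 samples had a median of 98.98 (45.2 to 155) and its 10 EC samples 81.1 (57.1 to 111). The cell types overlapped at E18.5, P14 and P28, at E18.5 through the EC value that rested on 13 recovered counts. At E16.5 and P1 the AT2 samples were above the EC samples, and at P7 they were below them.

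The log2 difference of miR-203-3p, AT2 minus EC, was 0.24 ± 0.18 (SE; limma, adjusted p = 0.246), 0.50 ± 0.33 before birth (adjusted p = 0.220) and -0.11 ± 0.23 at P7 to P28 (adjusted p = 0.682). The AT2 sample was higher in 5 of 9 specimen IDs. Without the 3 EC samples the overall difference was 0.086 (limma, adjusted p = 0.718). The outcome depended on the scaling between samples. With the samples at a common median the overall difference was 0.59 (limma, adjusted p = 0.00435), with quantile normalization 0.45 (adjusted p = 0.0271), and with the mean background subtracted 0.55 (adjusted p = 0.0283). On the recovered counts it was 0.62 with edgeR (adjusted p = 0.00218) and 0.80 with DESeq2 (adjusted p = 1.75e-05). Before birth the difference passed with background subtracted (1.03, limma, adjusted p = 0.0347), with edgeR (0.88, adjusted p = 0.0298) and DESeq2 (1.09, adjusted p = 0.0104), and without EC E18.5 replicate 1 (1.14, limma, adjusted p = 0.0403). At P7 to P28 the direction turned under 6 alternatives, with values from 0.063 to 0.54, of which DESeq2 at 0.54 passed (adjusted p = 0.0229). As deposited, the median of all tested microRNAs was -0.43, so 0.24 is above that median. Along the stages, miR-203-3p differed by -0.45 ± 0.26 in AT2 cells (SE; limma, adjusted p = 0.151) and by 0.16 ± 0.31 in EC (adjusted p = 0.689), and neither passed. Without AT2 E18.5 replicate 1 the value in AT2 cells was -0.72 and passed (limma, adjusted p = 0.0403), while with the samples at a common median it was 0.43 and with quantile normalization 0.21, neither called.

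**Figure D3:**
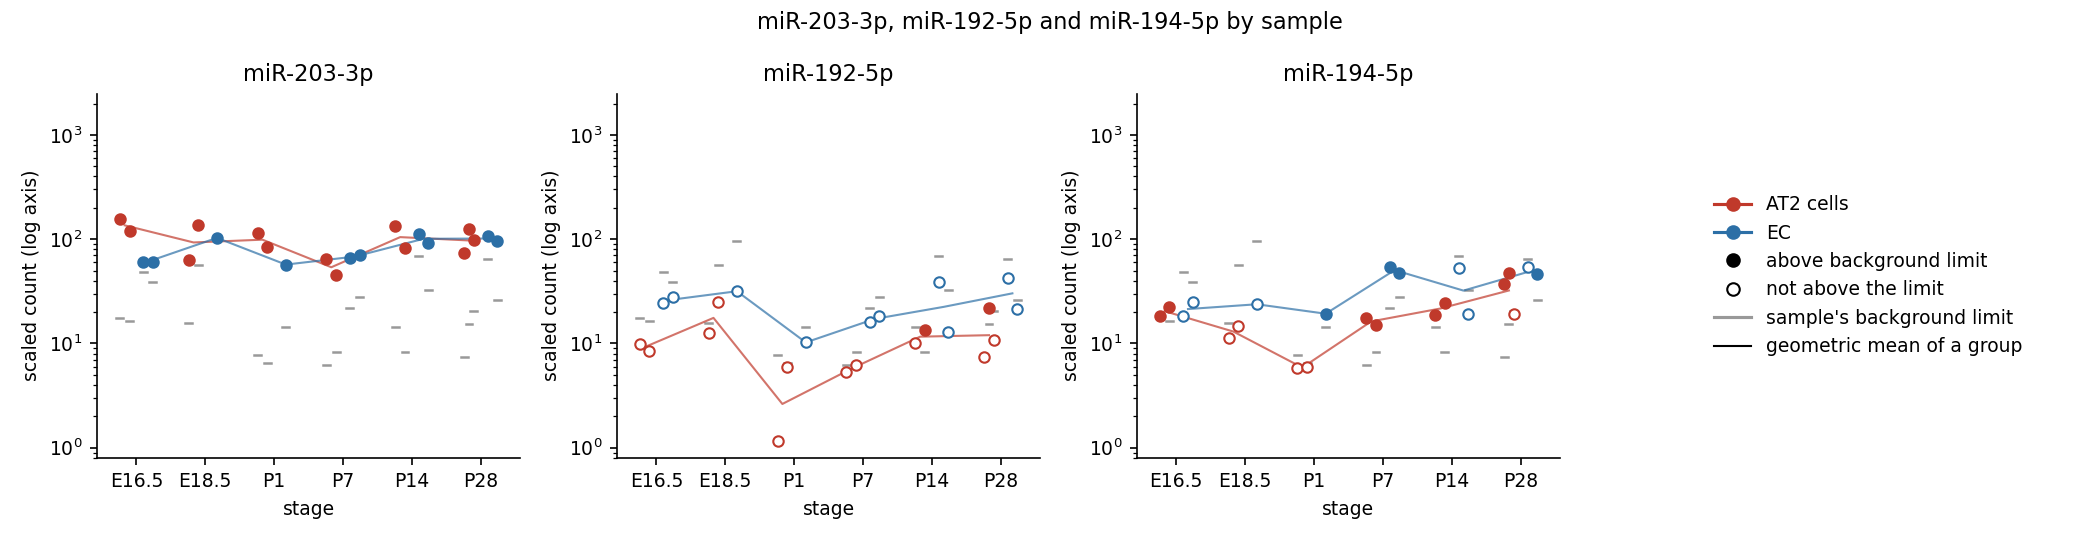
Scaled counts (log axis) of miR-203-3p, miR-192-5p and miR-194-5p by stage, 1 point per sample, AT2 cells and EC side by side at each stage, with lines through the geometric mean of each group and a grey bar at the background limit of each sample; open points are not above that limit. miR-203-3p was above its limit in all 23 samples, while miR-192-5p was above it in 2 of 13 AT2 and 0 of 10 EC samples.

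miR-192-5p and miR-194-5p, which share a cluster, were at or near background. miR-192-5p had a median of 9.96 scaled counts in 13 AT2 samples (1.16 to 24.8) and of 23.005 in 10 EC samples (10.2 to 42.5). Its recovered counts were between 1 and 45 in AT2 cells and between 4 and 26 in EC. It exceeded the limit only in AT2 P14 replicate 2 and AT2 P28 replicate 2, at 13.4 and 21.8. No EC sample showed miR-192-5p above background.

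miR-194-5p was above its limit in more samples than miR-192-5p. AT2 cells had 18.5 and 22.6 scaled counts in the E16.5 samples, 11.4 and 14.9 in those of E18.5, 5.79 and 5.96 in those of P1, 17.7 and 14.9 in those of P7, 19.0 and 24.6 in those of P14, and 37.2, 47.3 and 19.1 in those of P28. EC had 18.3 and 24.98 in the E16.5 samples, 23.8 in those of E18.5, 19.3 in those of P1, 54.4 and 47.0 in those of P7, 53.5 and 19.3 in those of P14, and 54.0 and 46.2 in those of P28. In AT2 cells the P1 samples were the lowest and 2 of the P28 samples the highest. Of these 2, AT2 P28 replicate 1 at 37.2 rested on 5 recovered counts, against a limit of 1 count in that sample. EC P1 replicate 1, both EC samples of P7 and EC P28 replicate 2 were the only EC samples above their limit.

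By the fit both were lower in AT2 cells, miR-192-5p by -1.22 ± 0.28 (SE; limma, adjusted p = 0.000952) and miR-194-5p by -0.87 ± 0.22 (adjusted p = 0.00198) on the log2 scale. The scaled mean background differed by -1.37 in the same direction, and the 248 microRNAs that were above background in no sample had a median difference of -1.08. No fold is given for miR-192-5p, whose EC samples were all below their limits, and both calls ended when background was subtracted (-0.29 and -0.050, limma, adjusted p = 0.526 and 0.896). Both were still called when the 3 EC samples were left out (-1.41 and -0.89, limma, adjusted p = 0.000608 and 0.00212). At P7 to P28 the differences were -1.20 ± 0.36 for miR-192-5p and -0.92 ± 0.28 for miR-194-5p (SE; limma, adjusted p = 0.00815 and 0.00859), beside a background difference of -1.56. Before birth neither passed, with -1.11 ± 0.51 for miR-192-5p (limma, adjusted p = 0.0835) and -0.44 ± 0.39 for miR-194-5p (adjusted p = 0.364). The value of miR-194-5p before birth was -0.064 without EC E18.5 replicate 1, and its sign turned with quantile normalization (0.41), background subtracted (1.28) and DESeq2 (0.096), none of them called. With the specimen ID as a block, miR-192-5p before birth passed at -1.16 (limma, adjusted p = 0.0412).

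The later stages had no called difference of miR-192-5p, with -0.42 ± 0.41 in AT2 cells (SE; limma, adjusted p = 0.392) and -0.32 ± 0.47 in EC (adjusted p = 0.587), and both signs turned with the samples at a common median (0.47 and 0.28). miR-194-5p differed by 0.44 ± 0.31 in AT2 cells (limma, adjusted p = 0.239) and by 0.91 ± 0.37 in EC (adjusted p = 0.0558), later minus earlier, while the scaled background differed by -1.04 and -0.86. The moderated F-test over the stages passed for miR-194-5p in AT2 cells (limma, adjusted p = 0.00944), as it did for 49.0% of tested microRNAs. Only 8 of the 13 AT2 values were above their limit, with 0 at E18.5 and 0 at P1, so this stage pattern lies near background. In EC the F-test did not pass (limma, adjusted p = 0.170), but it passed there with the samples at a common median (adjusted p = 0.0178). Both later minus earlier differences of miR-194-5p passed under other scalings. In AT2 cells it was 1.33 with the samples at a common median and 1.68 with background subtracted (limma, adjusted p = 0.000676 and 0.00956). In EC it was 1.52 and 3.27 (limma, adjusted p = 0.00184 and 0.000289), but all 3 earlier EC samples were below their limit. In EC it also passed with the specimen ID as a block, at 0.92 (limma, adjusted p = 0.0477), and without the 3 EC samples, at 1.19 (adjusted p = 0.0234). No member's later minus earlier difference was shown to differ between AT2 cells and EC in the deposited scaling.

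**Figure D4:**
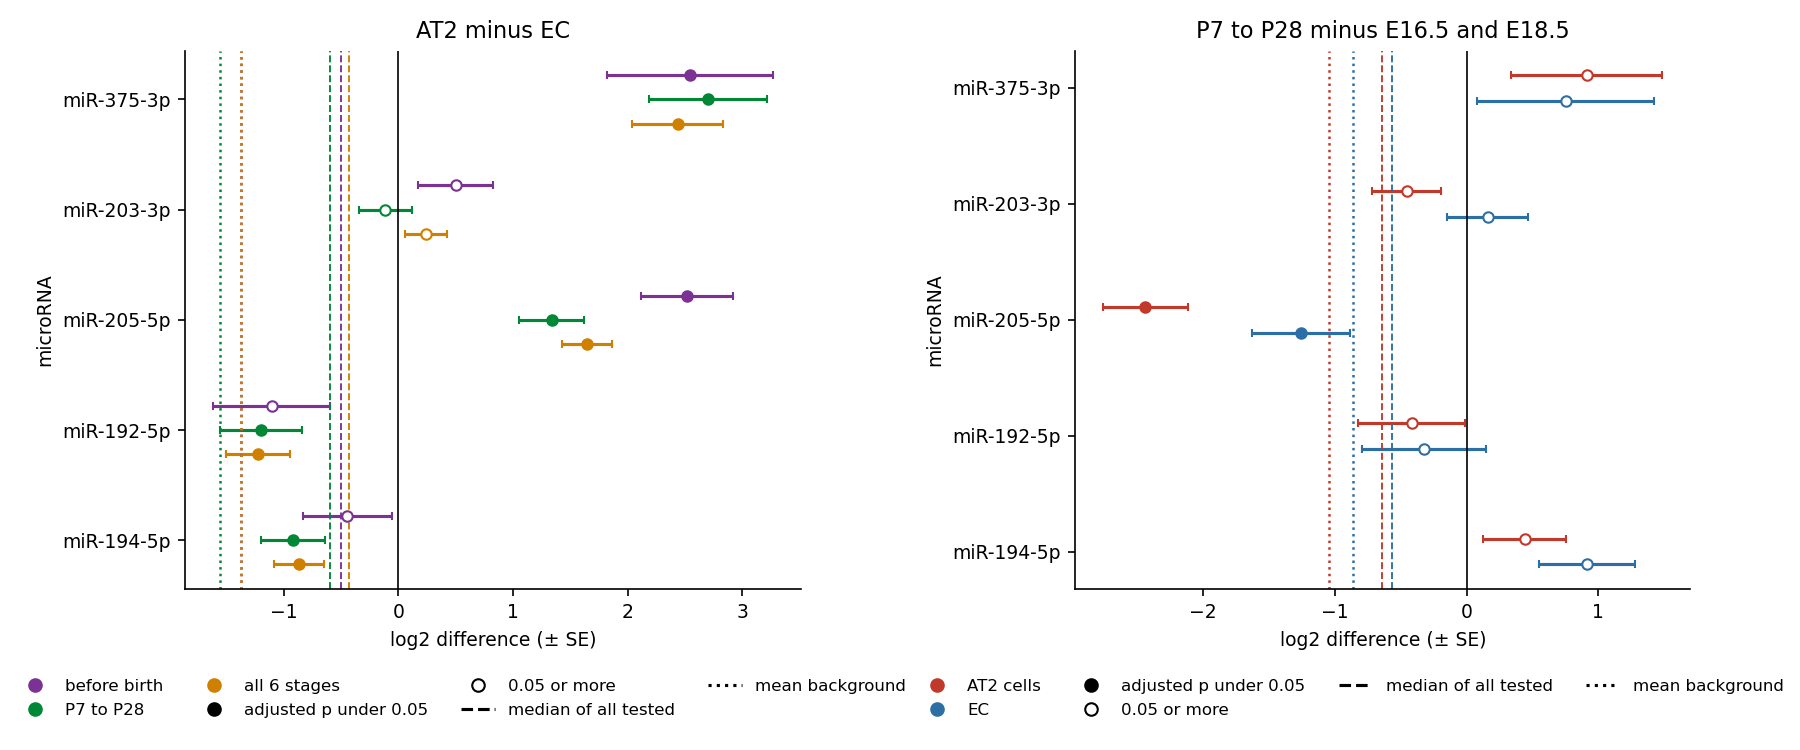
Fitted log2 differences (± SE) of the 5 microRNAs, AT2 minus EC on the left and P7 to P28 minus E16.5 and E18.5 on the right, filled where the adjusted p (limma) was below 0.05. Dashed lines are the median of all 302 tested microRNAs and dotted lines the difference of the scaled mean background, which lie below 0 in every comparison (-0.43 and -1.37 for AT2 minus EC over 6 stages, the 2 dotted lines before birth and over all stages coinciding).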

How the data were processed

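The authors' deposited values are a signal: in each sample the microRNA values are whole multiples of 1 factor, with values under 1 set to 1 in 9 samples. After dividing by the factor, 13842 of 13846 microRNA values counted as whole within 0.1. Values at the floor of 1 in those 9 samples were counted as whole without this check. The normalization that set the factor is not given in the sources used here. Columns were assigned by the sample descriptions in the labels. Counts were recovered by dividing by the factor, and background was taken from 8 low ERCC rows, read as negative controls from their values. Because recovered counts are not the deposited unit, the test was limma 3.58.1 (R 4.3.3; lmFit, eBayes with trend) on log2(value + 1), which understates differences of low microRNAs. It fitted 12 group means over 23 samples and 302 microRNAs, was two-sided, and used Benjamini-Hochberg adjustment with a threshold of 0.05. Groups of 1 sample take the pooled spread. Since the labels name no separate animals, the p-values reflect only how far samples of a group differ, and that may be technical. Only the limma test of AT2 minus EC was tried on simulated counts, which held no difference between stages and no specimen pairing. The other comparisons and the background steps were not tried in this way. Alternatives changed the scaling, the background, the filter, the pseudocount (10), the tool (edgeR 4.0.16 and DESeq2 1.42.0 on recovered counts), the specimen block, the title prefix and the samples. The members and lists were chosen with earlier results of these data known. Named microRNAs were the 5 members and, by rule, the 3 most correlated with each; these bear no name, so only 2 of them are printed. The reference tables paired 0 of the 602 identifiers with a name, so the lists of other epithelial, endothelial, mesenchymal, leukocyte, erythroid and multiciliated microRNAs and of relatives of the members (34 names) gave no result.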

Additional observations from a re-analysis of the deposited data

How the results depend on the processing

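Counts of called microRNAs moved by over 1.5 times under these alternatives. With a common floor they were 110 against 203 for AT2 minus EC, 87 against 135 before birth, 80 against 191 at P7 to P28, 86 against 155 for later minus earlier in AT2 cells, 72 in EC, 51 against 19 for the difference of these, and 86 against 148 for any stage in AT2 cells. With no filter 602 microRNAs were tested and not 302, so the counts there have another base and are not a change in share. They were 467 for AT2 minus EC, 310 before birth and 391 at P7 to P28. In EC they were 192 for later minus earlier and 189 against 82 for any stage. Requiring background to be exceeded in at least 12 samples left 206 microRNAs to test and gave 87 before birth. edgeR gave 72 for later minus earlier in EC and 12 for the difference of the changes, and leaving out the 3 EC samples gave 31 for that difference. Leaving out 1 sample at a time gave 185 to 212 for AT2 minus EC, 93 to 141 before birth, 165 to 203 at P7 to P28, 115 to 167 later minus earlier in AT2 cells, 116 to 164 for any stage in AT2 cells, and in EC 66 to 123 later minus earlier and 51 to 105 for any stage. The lowest in EC were 66 and 51 without EC E16.5 replicate 2, and 69 without EC E18.5 replicate 1. The difference of the changes gave 9 to 25, with 9 and 11 without AT2 E16.5 replicates 1 and 2, 12 without either AT2 E18.5 sample, 10 without AT2 P7 replicate 1 and 11 without EC E16.5 replicate 1.

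For the members, 890 of the values with 1 sample left out kept direction and side of the threshold, 16 passed newly, 3 no longer passed and 11 changed sign. Over the other alternatives these were 349, 41, 21 and 35. The first counts include samples that a comparison does not use, where only the p-value and not the difference could move. F-tests have no direction and were counted by the threshold alone. The 890 is therefore no measure of how stable the differences are. No value called as deposited changed sign. miR-203-3p at P7 to P28 (-0.11) was 0.36 with a common median, 0.16 with quantile normalization, 0.12 with background subtracted, 0.063 with the floor, 0.34 with edgeR and 0.54 with DESeq2 (adjusted p = 0.0229), the only sign change that passed. Before birth miR-192-5p was 0.039 with background subtracted, and miR-194-5p was 0.41 with quantile normalization, 1.28 with background subtracted and 0.096 with DESeq2. For later minus earlier in AT2 cells, a common median, quantile normalization, edgeR and DESeq2 gave 0.43, 0.21, 0.17 and 0.17 for miR-203-3p and 0.47, 0.42, 0.29 and 0.29 for miR-192-5p, which was 0.83 with background subtracted. In EC the same 4 gave 0.28, 0.69, 0.22 and 0.24 for miR-192-5p, which was 1.23 with background subtracted and 0.090 without the 3 EC samples, where miR-375-3p was -0.29. The difference of the changes of miR-375-3p was -0.22 with quantile normalization, -0.83 with background subtracted, -0.45 with edgeR, -0.46 with DESeq2 and -0.051 with the title prefix. That of miR-192-5p was 0.19 with a common median, 0.073 with edgeR, 0.051 with DESeq2 and 0.00047 with the title prefix. With 1 sample left out these 2 differences lay between -0.60 and 0.87 and between -0.35 and 0.16, and miR-203-3p at P7 to P28 between -0.23 and 0.0031. Calls of AT2 minus EC lost were miR-192-5p with quantile normalization (-0.47) and background subtraction (-0.29), and miR-194-5p with these (-0.16, -0.050) and DESeq2 (-0.36). At P7 to P28 miR-192-5p was lost with a common median (-0.72), quantile normalization (-0.48), background subtraction (-0.36) and DESeq2 (-0.55), miR-194-5p with the same (-0.44, -0.28, -0.31, -0.31) and edgeR (-0.50), and miR-205-5p with the floor (0.65). Before birth miR-375-3p was lost with the floor (1.21). The fall of miR-205-5p in EC was lost with a common median (-0.65), the floor (-0.56), edgeR (-0.59) and DESeq2 (-0.61), and lay between -1.45 and -0.86 with 1 sample left out. The stage test of miR-205-5p in EC was lost with the floor (adjusted p = 0.814) and without EC P7 replicate 1 (adjusted p = 0.0825). The difference of the falls of miR-205-5p passed with the floor (-1.87, limma, adjusted p = 0.00913). With the floor the AT2 value stayed at -2.44, while the EC value went from -1.26 to -0.56, as low EC values were raised to the floor. The cause of the other changes was not tested. miR-192-5p and miR-194-5p lie wholly under the floor and have no value there, and DESeq2 gave no F-test.

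Higher and lower calls with DESeq2 were 70 and 33 before birth against 50 and 85, 94 and 69 at P7 to P28 against 47 and 144, 67 and 67 later in AT2 cells against 34 and 121, and 53 and 23 later in EC against 28 and 84. Samples with the same specimen ID deviated together in 6 of 7 testable pairs (r from 0.21 to 0.31) and in 1 not (r = -0.02). The 2 pairs of E16.5 share a value by construction, as do the 2 of P7. The main fit ignored this pairing, and the ID was used as a replicate block only as an alternative (correlation 0.23). The block added the calls of miR-192-5p before birth (-1.16), miR-194-5p later in EC (0.92) and miR-375-3p at any stage in EC (adjusted p = 0.0475), and changed no other call of a member. miR-192-5p had between 1 and 45 recovered counts in a sample.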

Other observations

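In the AT2 samples of P1 miR-192-5p had 1.16 and 5.96 scaled counts and miR-194-5p 5.79 and 5.96, all below their background limits. The 2 clustered microRNAs moved in the same sense over samples, with a Pearson r of 0.68 on log2 values over 23 samples and 0.59 within the 13 AT2 samples, given as a description since samples share scaling factors and background. In the EC samples of P7 miR-205-5p had 16.2 scaled counts, below its limit, and 33.9, while the AT2 samples of the same specimen IDs had 191 and 160.3.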
